A study of Mus musculus with 21 samples.

Results

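PIC496-3 and PC308-1 are mouse glioma stem-like cell lines of different IDH1 genotype whose RNA profiles were among the most alike in the series. They were compared over the 13239 autosomal genes, of 54532 genes measured, that had a mean of at least 0.5 FPKM in at least 1 of the lines. FPKM counts sequenced fragments relative to the length of the gene and the size of the library. PIC496-3 carries the genotype IDH1 mutant and PC308-1 the genotype IDH1 WT (wild type), with 3 libraries of each. The pair was chosen on the correlation of these same values, which was 0.95 on the log2(FPKM + 0.5) scale between the line means, and which ranked 3 of 21 line pairs, after PC134-0 with PC326-1 and PIC144-3 with PIC496-3, pairs of 1 genotype each. Every difference between the lines given here is therefore a description of this pair. Each genotype is represented in the pair by 1 line, so genotype and line cannot be told apart within it.

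Messenger RNA was sequenced in 7 lines, each with 3 libraries called biological replicates in the labels, 21 libraries in all. The IDH1 mutant lines were PIC144-1, PIC144-3, PIC496-3 and PIC496-4, and the IDH1 WT lines were PC134-0, PC308-1 and PC326-1. All lines came from brain gliomas of genetically engineered mice and were grown untreated, in suspension, in stem cell medium with EGF and bFGF at 20 ng/mL each and 5% oxygen. The labels name no other allele, no driver of the engineered alleles, no age and no animal, so a line may be 1 culture of 1 tumour and its libraries measure the spread within that culture.

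IDH1 is the cytosolic isocitrate dehydrogenase, and the mutant enzyme of gliomas turns 2-oxoglutarate into 2-hydroxyglutarate, a metabolite that inhibits dioxygenases acting on DNA and histone methylation. cGAS, the product of the gene the series was made to examine, binds double-stranded DNA that is free in the cytosol and, by way of the adaptor STING, leads to interferons and the genes they induce. Cultures of IDH1 mutant glioma commonly hold cells that resemble oligodendrocyte progenitors, cells marked by OLIG2 and the PDGF receptor alpha that give rise to myelinating oligodendrocytes.

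The libraries held 15011668 to 21966351 fragments over the series and 16568840 to 19229886 in the pair. Libraries of PIC496-3 correlated at 0.987 to 0.988 with each other, those of PC308-1 at 0.977 to 0.983, and libraries of different lines at 0.934 to 0.946. PC308-1 replicate 2 was the library with the lowest correlations within its line. A gene is called here when its difference between the lines was at least 2-fold and its Benjamini-Hochberg adjusted p from limma, over all genes fitted, was under 0.05. Where a pair of levels is given as 1 value against another, the mean of the PIC496-3 libraries stands first and that of the PC308-1 libraries second, and negative differences mean lower in PIC496-3. The p-values measure only the spread between libraries, which may be technical, and serve here to mark differences larger than that spread.

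Most genes lay within 2-fold between the lines. The median difference, PIC496-3 minus PC308-1, was 0.0015 on the log2 scale, the median size of a difference was 0.26, and 12210 genes (92.2%) lay within 2-fold. At any size, 2577 genes (19.5%) were higher and 2823 (21.3%) lower at an adjusted p under 0.05 in limma. Called were 941 genes (7.11%), of which 293 (2.21%) were higher and 648 (4.89%) lower in PIC496-3. With quantile normalization the split was 403 higher to 498 lower, so the share of higher genes among those called was 44.7% there and 31.1% in the fit used throughout. Differences of at least 2 on the log2 scale were found in 46 higher and 168 lower genes, and differences of at least 3 in 8 higher and 52 lower genes. These counts come from the contrast that chose the pair and are given without a reading.

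Part of the called genes passed the level filter in 1 line only. Among the 11860 genes that passed it in both lines, 189 were called higher and 341 lower. Through PIC496-3 alone passed 496 genes, of which 104 were called, and through PC308-1 alone passed 878 genes, of which 307 were called. These groups together hold slightly fewer genes than the 13239 reported, but all 941 called ones. At the filter, Eva1b lay just inside with 0.5003 FPKM in its higher line and Mir6905 just outside with 0.4998 FPKM.

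**Figure D1:**
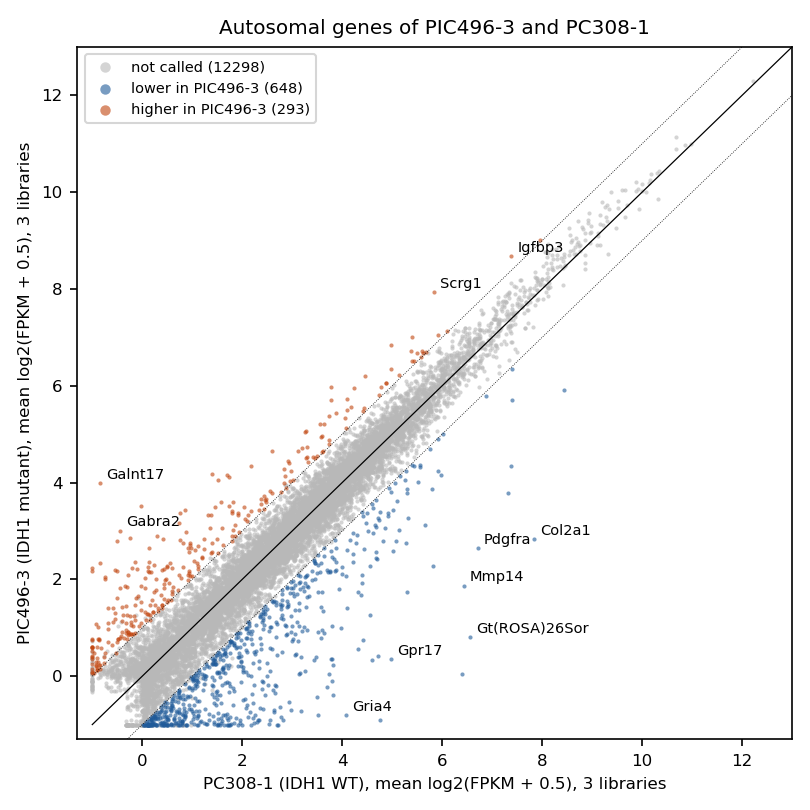
Each point is 1 of 13239 autosomal genes, with the mean log2(FPKM + 0.5) of 3 PC308-1 libraries on the horizontal axis and of 3 PIC496-3 libraries on the vertical axis; dotted lines mark 2-fold. The 648 genes called lower reach further from the diagonal than the 293 called higher.

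Cgas, listed in the file under its older symbol Mb21d1, was lower in PIC496-3. Its position is chromosome 9, 78430526 to 78443237 of the minus strand (GRCm38, ENSMUSG00000032344), and it measured 0.957, 1.22 and 1.04 FPKM in PIC496-3 and 2.89, 3.17 and 3.13 FPKM in PC308-1. All libraries of PIC496-3 lay below all libraries of PC308-1, with 229 fragments in sum against 664, and the difference was -1.18 ± 0.11 (SE) on the log2(FPKM + 0.5) scale. In the lines outside the pair, Cgas measured 0.502 FPKM in PIC144-1, 2.55 in PIC144-3, 0.229 in PIC496-4, 3.91 in PC134-0 and 3.24 in PC326-1, so PIC144-3 came closer to the IDH1 WT lines than PIC496-3 did. Idh1 itself, on chromosome 1, 65158616 to 65186500 of the minus strand (GRCm38, ENSMUSG00000025950), measured 135, 136 and 130.4 FPKM in PIC496-3 and 98.7, 84.6 and 88.3 FPKM in PC308-1, a difference of 0.56 ± 0.070 (SE). The Idh1 level does not separate mutant from wild-type transcripts.

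Of the cytosolic DNA and RNA sensing genes, 16 were fitted, with a median difference of -0.12 against 0.0015 over all genes. Called lower were 3 and higher none, beside 4.89% and 2.21% of all genes. Besides Cgas these were Tlr3, an endosomal receptor for double-stranded RNA, and Zcchc3, a co-sensor that aids cGAS. Tlr3 measured 4.21, 5.13 and 4.65 FPKM in PIC496-3 and 19.4, 18.1 and 16.6 FPKM in PC308-1. Zcchc3 measured 1.59, 1.71 and 1.42 FPKM in PIC496-3 and 6.32, 6.94 and 7.08 FPKM in PC308-1. For both genes the groups were well apart, with differences of -1.84 ± 0.090 (SE) and -1.81 ± 0.090 (SE). The adaptor STING, listed as Tmem173, was 40.8 against 58.6 FPKM (-0.51 on the log2 scale), and the mitochondrial adaptor Mavs was 11.3 against 15 FPKM. The kinase Tbk1 was nearly level at 6.24 against 6.75 FPKM, and Irf3, the transcription factor it activates, was 5.86 against 4.27 FPKM. The called genes were sensors and a co-sensor, but not every sensor was called. Ddx58 was 1.71 against 2.5 FPKM (-0.45) and Eif2ak2 5.06 against 4.37 FPKM (0.19), neither called. The adaptors were lower and Irf3 higher, each by less than 2-fold.

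Of 32 interferon-stimulated genes 17 were fitted, with a median difference of -0.51. Of these 4 were called lower and none higher, beside 4.89% and 2.21% of all genes. At any size 9 were lower and 1 higher at an adjusted p under 0.05 in limma, beside 21.3% and 19.5% of all genes. The called ones were Isg15, a ubiquitin-like modifier, the antiviral RNA-binding proteins Ifit1 and Ifit2, and Rsad2, the antiviral enzyme viperin. Their promoters are shown because they carry the letters of the element through which interferon acts. The interferon-stimulated response element was searched as GAAA, any 2 bases (NN) and GAAA again, on both strands, overlapping matches included, in RefSeq promoters of GRCm38.p6 that run from 250 bases before to 50 bases after each gene start. Of these 4 promoters 3 held it, and none was found in that of Ifit2. Each sequence is written 5′ to 3′ on the strand of its gene, with the matched letters in capitals. The Ifit1 sequence is chr19:34640755-34640843 on the plus strand, that of Isg15 chr4:156200845-156200926 on the minus strand and that of Rsad2 chr12:26456533-26456602 on the minus strand.
Ifit1: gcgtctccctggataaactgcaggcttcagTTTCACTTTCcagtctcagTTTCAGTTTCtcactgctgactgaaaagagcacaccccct
Isg15: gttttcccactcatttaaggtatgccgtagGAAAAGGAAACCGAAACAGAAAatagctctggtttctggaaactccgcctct
Rsad2: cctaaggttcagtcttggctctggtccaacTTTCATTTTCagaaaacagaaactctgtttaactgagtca

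The Ifit1 stretch holds 2 matches and that of Rsad2 1, all read as the reverse complement, and that of Isg15 holds 3 that overlap. The element was present in 12 of the 23 listed interferon-stimulated genes that had a promoter in the table (52.2%) and in 1079 of all 27025 genes with one (3.99%). It was present in 7 of 13 that were also fitted (53.8%).

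Isg15 measured 0.58, 0.347 and 0.73 FPKM in PIC496-3 and 2.79, 1.41 and 3 FPKM in PC308-1. Rsad2 measured 0.867, 0.726 and 0.792 FPKM in PIC496-3 and 2.28, 2.44 and 2.07 FPKM in PC308-1. Ifit2 measured 0.989, 1.16 and 0.749 FPKM in PIC496-3 and 2.63, 2.39 and 2.89 FPKM in PC308-1. The libraries of the lines did not overlap in any of these 3 genes, as in 54.4% of all genes. Ifit1 was near the detection limit in PIC496-3, with 9 fragments in sum against 97 in PC308-1. The differences were -1.43 for Isg15, -1.09 for Rsad2, -1.10 for Ifit2 and -1.07 for Ifit1. With a pseudocount of 1 in place of 0.5, Cgas, Ifit1, Ifit2 and Rsad2 fell short of the 2-fold line, and with quantile normalization Ifit1, Ifit2 and Rsad2 lost their call as well. Ifit1 also lost its call without PC308-1 replicate 2, and Ifit2 without PIC496-3 replicate 3. More abundant interferon-stimulated genes were not called: Ifitm3 was 27.5 against 34.2 FPKM, Bst2 was 20.3 against 13.2 FPKM, Ifi27 was 17.5 against 21.4 FPKM and Stat2 was 4.58 against 3.66 FPKM. The chemokine Cxcl10, another interferon target, was called lower at 0.412 against 2.65 FPKM (-1.79).

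Class I antigen presentation genes, which load peptides on MHC class I for T cells, held no called gene among 19 fitted, beside 7.11% of all genes. Their median was -0.05. The heavy chain H2-K1 measured 52.8, 48.9 and 52.7 FPKM in PIC496-3 and 39.99, 36.8 and 36.6 FPKM in PC308-1, a small difference toward PIC496-3 of 0.44 ± 0.062 (SE). The light chain B2m went the other way at 75.9 against 94.9 FPKM, as did the peptide transporters Tap1 at 1.11 against 2.1 FPKM and Tap2 at 1.07 against 2.07 FPKM. With quantile normalization the median of the list was 0.03, so its sign depended on the scaling.

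All 18 oligodendrocyte progenitor genes were fitted, with a median of -0.90. In PIC496-3, 8 were called lower and none higher, beside 4.89% and 2.21% of all genes. Another 3 were lower and 2 higher at an adjusted p under 0.05 in limma without reaching 2-fold. Pdgfra, the receptor for PDGF on these progenitors, lies on chromosome 5, 75152292 to 75198215 of the plus strand (GRCm38, ENSMUSG00000029231) and measured 5.79, 5.87 and 5.55 FPKM in PIC496-3 and 106, 109 and 97.5 FPKM in PC308-1. Gpr17, a receptor of progenitors about to differentiate, measured 0.953, 0.626 and 0.767 FPKM in PIC496-3 and 34.3, 28.5 and 30.01 FPKM in PC308-1. C1ql1, a secreted protein of progenitors, measured 3.57, 2.78 and 2.29 FPKM in PIC496-3 and 38.7, 32.6 and 46.1 FPKM in PC308-1. In each of these genes every PC308-1 library was far above every PIC496-3 library, and the differences were -4.07 ± 0.063 (SE), -4.62 ± 0.11 (SE) and -3.55 ± 0.17 (SE).

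Most transcription factors of the list did not share this. Olig1 was 719.8 against 620.1 FPKM, Olig2 419 against 298 FPKM and Sox8 93.6 against 86.3 FPKM, none of them called, and Olig2 was slightly higher in PIC496-3. Sox10, which drives the step toward myelination, did go with the lower genes and was near 0 in PIC496-3 and 0.528 FPKM in PC308-1. Its difference of -0.95 passed the adjusted p (0.0091 in limma) but fell short of 2-fold on the log2(FPKM + 0.5) scale. Matrix and surface proteins split in the same way: Ptprz1 and Bcan were level at 100 against 98.2 FPKM and 82.6 against 86.5 FPKM, whereas Lhfpl3, Pcdh15, Matn4 and Tnr were called lower. Lims2, also called lower at 0.185 against 4.22 FPKM, overlaps Gpr17 on the opposite strand, and the use of strand in counting is not given in the sources used here, so reads of one may have been counted for the other. The summed level of the list was 1489 to 1585 FPKM in PIC496-3 and 1369 to 1604 in PC308-1, a sum dominated by Olig1 and Olig2. In bulk samples, fewer cells of a type and less RNA per cell cannot be told apart.

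The Pdgfra difference was carried by PC308-1. Outside the pair Pdgfra measured 9.79 FPKM in PIC144-1, 5.19 in PIC144-3, 0.436 in PIC496-4, 12.4 in PC134-0 and 11.7 in PC326-1. PIC496-3 lay within the range of the other IDH1 mutant lines, and PC308-1 lay far above the other IDH1 WT lines. Gpr17 was at 0.189 FPKM in PIC144-1, 0.102 in PIC144-3, 0.0245 in PIC496-4, 0.468 in PC134-0 and 0.0116 in PC326-1, so PC308-1 was the only line of 7 with more than 1 FPKM.

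Of 16 oligodendrocyte genes listed, 8 were fitted, with a median of -0.59. Called lower were 3 and higher none, beside 4.89% and 2.21% of all genes. Bcas1, a marker of newly formed oligodendrocytes, measured 1.06, 1.18 and 0.747 FPKM in PIC496-3 and 19.3, 18 and 20.8 FPKM in PC308-1. The myelin genes Mbp at 0.494 against 0.522 FPKM, and Mag and Mog below the filter, were low or near 0 in both lines, whereas Cnp, an enzyme of myelin, was 16.4 against 27.3 FPKM and not called. The other called genes were Ugt8a at 0.0447 against 0.655 FPKM and Cldn11 at 0.316 against 1.18 FPKM. Cldn11 lost its call without any of 3 libraries, PIC496-3 replicates 1 and 3 and PC308-1 replicate 2, and Ugt8a without PC308-1 replicate 1.

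Astrocyte genes went in both directions, with 3 called higher and 3 lower among 13 fitted, beside 2.21% and 4.89% of all genes. Lower were Apoe, the lipid carrier, with 0.791, 0.933 and 0.602 FPKM in PIC496-3 and 20.6, 21.5 and 29.7 FPKM in PC308-1, the calcium-binding protein S100b at 1.91 against 23.1 FPKM and the gap junction protein Gja1 at 1.32 against 7.78 FPKM. Higher were the glutamate transporter Slc1a2 with 10.2, 8.35 and 10.5 FPKM in PIC496-3 and 2.06, 2.3 and 1.66 FPKM in PC308-1, Fgfr3 and Agt at 1.88 against 0.427 FPKM. The defining markers Gfap and Aqp4 were below the filter of 0.5 FPKM in both lines. The median of the list, 0.18, turned to -0.07 with quantile normalization.

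Of 14 neural stem cell genes 1 was called higher and 2 lower, beside 2.21% and 4.89% of all genes. At any size 6 were higher and 3 lower at an adjusted p under 0.05 in limma, beside 19.5% and 21.3% of all genes. Vim was 496 against 497 FPKM, Sox2 224 against 216 FPKM and Ptprz1 as given above, while Fabp7 was 675 against 423 FPKM (0.68), Tnc 226 against 138 FPKM (0.71) and Nes 74.9 against 52.7 FPKM (0.51). Fut4, which makes the CD15 antigen, was 0.495 against 1.37 FPKM (-0.92). The called ones were low: Hopx was 2.53 against 0.885 FPKM, Hes5 1.57 against 5.54 FPKM and Prom1, the gene of CD133, 0.147 against 0.999 FPKM. Of neuronal genes 7 of 16 were fitted, and 1 was called lower and 1 higher, beside 4.89% and 2.21% of all genes. Tubb3 was lower at 3.54 against 10.5 FPKM and Syt1 higher at 2.26 against 0.611 FPKM.

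Of the genes of cells that a tumour culture can carry from the brain, many were not detected. The microglial genes Itgam, C1qa, C1qb, C1qc, Tyrobp and Trem2, the endothelial genes Cdh5, Cldn5 and Emcn and the T cell genes Cd3d, Cd3g, Cd8a and Trac had no fragment in any of the 6 libraries. Egfl7 was the only endothelial gene of 12 that was fitted, and it was called higher at 4.43 against 0.679 FPKM. Acta2, of the pericyte list, was called lower at 0.238 against 1.34 FPKM, beside Pdgfrb, Rgs5 and Des below 0.5 FPKM in both lines. Cspg4, which the pericyte list shares with that of the progenitors, was 29.5 against 48.9 FPKM. Of markers for the labelled cell type, glioma stem-like cells, Sox2, Nes, Vim and Olig2 were abundant in both lines, while Prom1 and Fut4 were below 0.5 FPKM in PIC496-3.

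**Figure D2:**
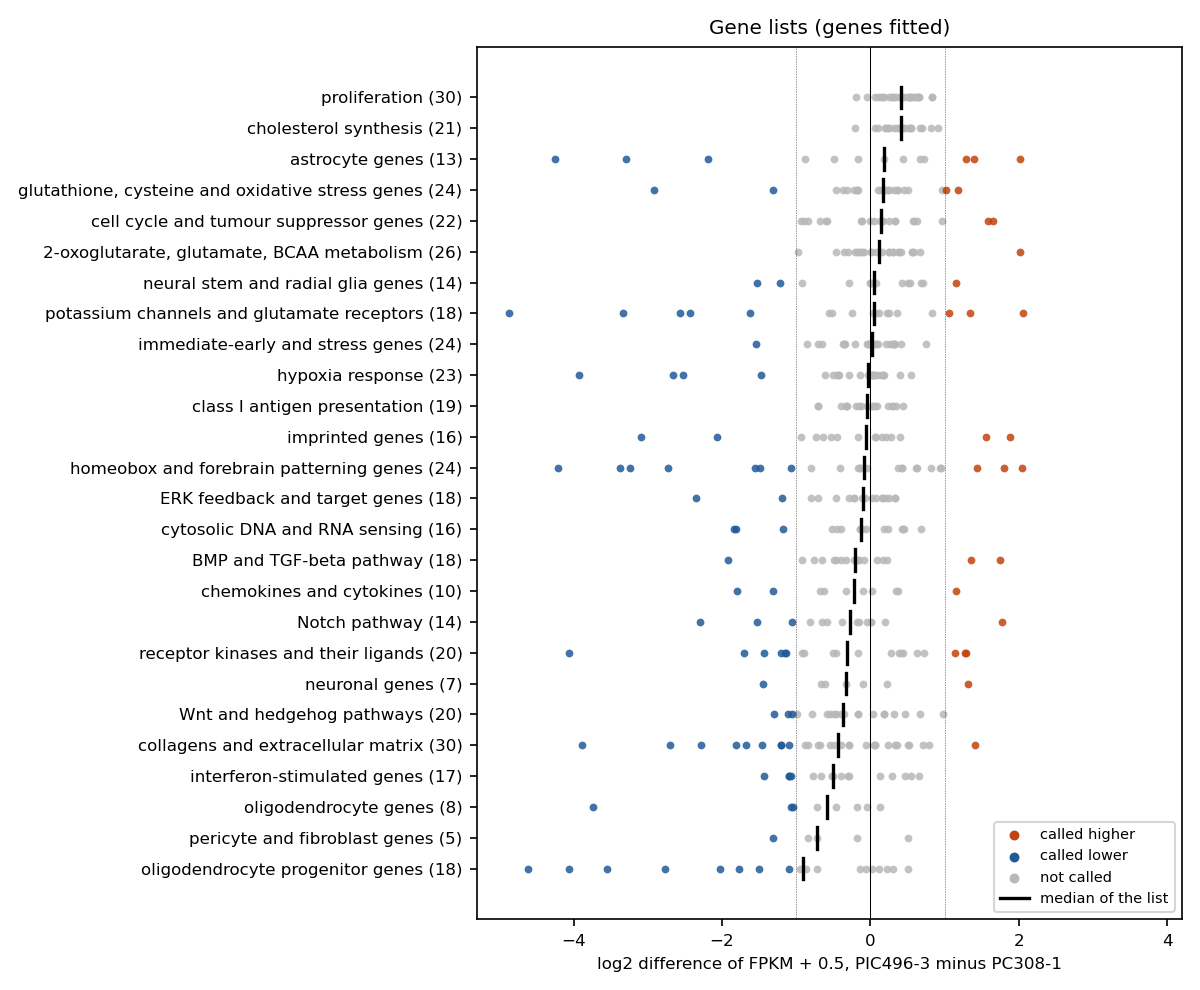
Each point is a fitted gene of the list named at the left, for lists with at least 5 fitted genes, with the number fitted in parentheses, at its log2 difference, PIC496-3 minus PC308-1; black bars are list medians. Of the lists shown, the oligodendrocyte progenitor list has the lowest median, -0.90, and the proliferation and cholesterol lists the highest, both 0.42.

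Receptor kinases and their ligands went in both directions, with 3 called higher and 6 lower of 20, beside 2.21% and 4.89% of all genes. Egfr, the EGF receptor, measured 16.8, 16.9 and 17.5 FPKM in PIC496-3 and 6.77, 7.53 and 6.01 FPKM in PC308-1, a difference of 1.28 ± 0.084 (SE). Fgfr3 measured 12.2, 12.2 and 12.2 FPKM in PIC496-3 and 4.4, 4.74 and 4.97 FPKM in PC308-1, a difference of 1.28 ± 0.067 (SE). Areg, a ligand of the EGF receptor, was also higher at 15.4 against 6.76 FPKM, while its relative Tgfa was lower at 1.83 against 4.62 FPKM. On the lower side stood Pdgfra, the neuregulin receptor Erbb4 at 0.108 against 1.49 FPKM, the neurotrophin receptor Ntrk3 at 2.28 against 5.94 FPKM and Ephb2 at 0.452 against 1.61 FPKM. Pdgfd, a PDGF ligand, had no fragment in PIC496-3 and 0.862 FPKM in PC308-1, at least 15.4-fold lower if 3 fragments are allowed in each PIC496-3 library. The receptors for the growth factors in the medium, Egfr and Fgfr3, were thus higher in PIC496-3, while Fgfr1 was 28.3 against 20.7 FPKM and Fgfr2 0.43 against 1.21 FPKM, neither called. The median of the list was -0.31 and turned to 0.33 when only genes of at least 2 FPKM were kept.

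Of 18 genes that ERK signalling induces, none was called higher and 2 were called lower, beside 2.21% and 4.89% of all genes. These 2 were Il17rd, an inhibitor of FGF signalling, with 1.41, 1.5 and 1.38 FPKM in PIC496-3 and 9.13, 9.89 and 8.98 FPKM in PC308-1, and Phlda1 at 20.1 against 46.7 FPKM. The feedback inhibitors Dusp6 at 73.2 against 101 FPKM, Spry2 at 115 against 103 FPKM and Spry4 at 72.1 against 84.2 FPKM and the target factors Etv5 at 219 against 238 FPKM and Etv1 at 8.21 against 14.7 FPKM were not called. At any size 8 of the 18 were lower and 2 higher at an adjusted p under 0.05 in limma, beside 21.3% and 19.5% of all genes. Dusp6 (-0.46), Spry4 (-0.22) and Etv1 (-0.80) were among those lower.

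Proliferation genes had small differences that nearly all pointed to PIC496-3. None of 30 was called at 2-fold, but 28 had a positive difference and 23 passed the adjusted p at any size, beside 19.5% of all genes that passed it in that direction. The median was 0.42. Plk1, a mitotic kinase, was 67.9 against 38.4 FPKM, the replication clamp Pcna 92.1 against 62.7 FPKM, the helicase subunit Mcm7 45.7 against 28.8 FPKM and the cyclin Ccnb1 44.7 against 31.4 FPKM. Mki67 at 51.8 against 48.4 FPKM and Top2a at 75.6 against 87 FPKM, the usual markers of cycling cells, did not pass it.

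Among 22 cell cycle and tumour suppressor genes, 2 were called higher and none lower, beside 2.21% and 4.89% of all genes. Cdk6, a kinase of the G1 phase, measured 4.09, 4.39 and 4.2 FPKM in PIC496-3 and 1.16, 0.993 and 0.875 FPKM in PC308-1, and Trp53, the gene of p53, measured 6.26, 5.79 and 5.88 FPKM in PIC496-3 and 1.13, 1.87 and 2.09 FPKM in PC308-1. Outside the pair Trp53 measured 4.2 FPKM in PIC144-1, 1.25 in PIC144-3, 16.1 in PIC496-4, 1.52 in PC134-0 and 1.4 in PC326-1, so PC308-1 lay near PIC144-3, PC134-0 and PC326-1, and PIC496-3 nearer to PIC144-1. The labels do not say whether Trp53 is altered in these lines. Its targets Cdkn1a at 38.9 against 37.3 FPKM and Mdm2 at 13.5 against 12.3 FPKM were level, and so was Cdkn2a at 139 against 141 FPKM. Myc was 58.2 against 29.5 FPKM, just short of 2-fold.

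Cholesterol synthesis genes were similar in pattern to the proliferation genes. None of 21 was called at 2-fold, and 20 had a positive difference, with a median of 0.42. At any size 15 passed the adjusted p, beside 19.5% of all genes that passed it in that direction. Idi1, an isomerase of the early pathway, was 63.6 against 39.9 FPKM. Both medians stayed positive under all alternatives run, and were 0.32 for both lists after rescaling to TPM.

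In the metabolism of 2-oxoglutarate, the substrate of the mutant enzyme, 1 of 26 genes was called, beside 7.11% of all genes. It was the transporter Slc1a2. The mitochondrial Idh2 was 79.8 against 52.8 FPKM, the catalytic subunit Idh3a 34 against 23 FPKM and the branched-chain aminotransferase Bcat1 9.69 against 13.6 FPKM. Idh2 (0.59), Idh3a (0.56) and Bcat1 (-0.46) passed the adjusted p without reaching 2-fold. D2hgdh, which clears D-2-hydroxyglutarate, was 1.35 against 1.87 FPKM (-0.36) and met neither rule. At any size 9 of the 26 were higher and 3 lower at an adjusted p under 0.05 in limma, beside 19.5% and 21.3% of all genes. Among 24 glutathione and cysteine genes 2 were called lower and 2 higher, beside 4.89% and 2.21% of all genes. Cdo1, which oxidises cysteine, was called lower with 0.246, 0.343 and 0.361 FPKM in PIC496-3 and 5.33, 5.06 and 6.6 FPKM in PC308-1, as was the secreted peroxidase Gpx3 at 8.52 against 21.9 FPKM. Csad, the next enzyme on the way from cysteine to taurine, was called higher at 12 against 5.01 FPKM, as was the transferase Gstm1 at 104 against 50.8 FPKM. Gstm1 lost its call without PIC496-3 replicate 1, with quantile normalization and after rescaling to TPM. Csad overlaps Zfp740 on the opposite strand.

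Of 23 hypoxia response genes 4 were called lower and none higher, beside 4.89% and 2.21% of all genes. Cox4i2, an oxygen-sensitive subunit of cytochrome oxidase, measured 0.398, 0.133 and 0.233 FPKM in PIC496-3 and 10.3, 12.9 and 9.57 FPKM in PC308-1. Car9, a carbonic anhydrase, measured 7.62, 4.97 and 6.47 FPKM in PIC496-3 and 36.9, 42.5 and 36.1 FPKM in PC308-1. Ndufa4l2, a mitochondrial protein, was 1.43 against 11.7 FPKM, and Lox, the collagen cross-linking oxidase, 0.103 against 1.17 FPKM. At any size 8 were lower and 2 higher at an adjusted p under 0.05 in limma, beside 21.3% and 19.5% of all genes. Of common targets of HIF not called, the glucose transporter Slc2a1 was 149 against 227 FPKM (-0.62), Adm 96.1 against 136 FPKM (-0.50) and Pdk1 61.3 against 42 FPKM (0.54), which passed it, while Vegfa at 273 against 262 FPKM, Bnip3 at 253 against 238 FPKM and Ldha at 1078 against 969.5 FPKM did not. The median of the list, -0.03, turned to 0.06 without PIC496-3 replicate 2. Cox4i2 and Ndufa4l2 were low in all 4 IDH1 mutant lines and high in all 3 IDH1 WT lines, whereas Lox had 1.17 FPKM in both PIC144-3 and PC308-1, and Car9 was highest in PIC144-3, with 54.7 FPKM.

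Of 30 matrix genes 9 were called lower and 1 higher, with a median of -0.44, beside 4.89% of all genes called lower and 2.21% called higher. Outside that list Col2a1, the collagen of cartilage, on chromosome 15, 97975602 to 98004695 of the minus strand (GRCm38, ENSMUSG00000022483), was lower with 7.79, 5.47 and 6.91 FPKM in PIC496-3 and 254, 208 and 228 FPKM in PC308-1, a difference of -5.00 ± 0.13 (SE). Mfap2, a microfibril protein, measured 0.931, 0.26 and 0.253 FPKM in PIC496-3 and 14.6, 12.1 and 13.6 FPKM in PC308-1. The collagens Col9a3 at 2.72 against 20.5 FPKM, Col5a1 at 5.71 against 21.3 FPKM, Col5a2 at 2.67 against 9.65 FPKM and Col18a1 at 2.92 against 8.89 FPKM and the proteoglycans Vcan at 3.77 against 9.31 FPKM and Acan at 0.274 against 1.27 FPKM were lower too. Fbn2, a fibrillin, was the called gene on the higher side at 44.9 against 16.6 FPKM. The most abundant matrix genes were not called: Sparcl1 was 440.3 against 374 FPKM, Tnc 226 against 138 FPKM, Ncan 166 against 129 FPKM and Sparc 98.2 against 129 FPKM. Mmp14, a membrane-bound matrix metalloprotease, was also lower with 3.44, 2.97 and 3.08 FPKM in PIC496-3 and 90.5, 77.4 and 89.6 FPKM in PC308-1. Col9a3 overlaps Tcfl5 on the opposite strand, a gene that was called higher at 10.3 against 1.32 FPKM.

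Notch, BMP and Wnt genes held 14 fitted, 18 fitted and, with hedgehog genes, 20 fitted members. For Notch 3 were called lower and 1 higher, beside 4.89% and 2.21% of all genes. The ligand Dll3 at 3.81 against 20.6 FPKM and the target factors Hes5 and, at 12 against 25.2 FPKM, Hey1 were lower. Lfng, the glycosyltransferase that modifies the receptors, was higher with 30.7, 35.9 and 30.7 FPKM in PIC496-3 and 8.91, 7.72 and 11 FPKM in PC308-1. The receptors Notch1 at 35 against 34.9 FPKM and Notch2 at 4.6 against 4.78 FPKM were level. Hey1 lost its call without PIC496-3 replicate 2. For BMP and TGF-beta 1 was called lower and 2 higher, beside 4.89% and 2.21% of all genes. Id4 was lower at 0.0197 against 1.47 FPKM. Ltbp1, which binds latent TGF-beta, was among the higher at 6.24 against 2.13 FPKM, while Id1, Id2 and Id3 were not called. For Wnt and hedgehog 3 were called lower and none higher, beside the same 4.89% and 2.21% of all genes. These were Sfrp2, Wnt7b and Dkk3, while the target Axin2 was 5.91 against 5.17 FPKM. Dkk3 lost its call without PC308-1 replicate 1.

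Homeobox genes, which record the region and history of neural cells, had 7 called lower and 3 higher of 24 (41.7% called), beside 7.11% of all genes. Lower were En1 at 0.151 against 3.76 FPKM and En2 with 0.283, 0.252 and 0.26 FPKM in PIC496-3 and 13.8, 10.5 and 17.3 FPKM in PC308-1, which mark the midbrain and hindbrain, Irx1 at 0.0999 against 5.78 FPKM, Hoxa9 at 0.031 against 4.54 FPKM, Hoxa2 at 1.69 against 5.93 FPKM, Zic1 at 4.1 against 12.4 FPKM and Otx1 at 0.224 against 1.02 FPKM. Higher were Emx2 at 4.59 against 0.973 FPKM and Dlx2 at 4.26 against 1.28 FPKM, which mark the forebrain, and Nkx6-2 with 10.9, 10.1 and 11.5 FPKM in PIC496-3 and 2.71, 1.98 and 2.11 FPKM in PC308-1. Outside this list Dbx2, a homeobox gene of the neural tube, was called higher with 9.16, 11 and 9.44 FPKM in PIC496-3 and 1.23, 0.954 and 1.41 FPKM in PC308-1.

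Imprinted genes had 2 called higher and 2 lower of 16, beside 2.21% and 4.89% of all genes. Higher were Peg3 with 3.01, 3.22 and 3.12 FPKM in PIC496-3 and 0.487, 0.564 and 0.404 FPKM in PC308-1 and Peg10 at 42.8 against 14.3 FPKM. Lower were Grb10 with 0.524, 0.514 and 0.614 FPKM in PIC496-3 and 8.72, 9.41 and 7.25 FPKM in PC308-1 and the long RNA H19 at 1.43 against 7.34 FPKM. At any size 3 of the 16 were higher and 7 lower at an adjusted p under 0.05 in limma, beside 19.5% and 21.3% of all genes. H19 was 1.19 FPKM in PIC144-1, 2.1 in PIC144-3, 9.55 in PIC496-4, 0.00801 in PC134-0 and 0 in PC326-1 outside the pair, and Grb10 was 2.47 FPKM in PIC144-1, 8.01 in PIC144-3, 11.9 in PIC496-4, 7.87 in PC134-0 and 4.6 in PC326-1, so PIC496-3 was the line of 7 with the least Grb10.

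Of 18 channel and glutamate receptor genes 3 were called higher and 5 lower (44.4% called), beside 7.11% of all genes. Gria4, an AMPA receptor subunit on chromosome 9, 4417896 to 4796234 of the minus strand (GRCm38, ENSMUSG00000025892), measured 0.0696, 0.0167 and 0.146 FPKM in PIC496-3 and 16.1, 17.8 and 15.4 FPKM in PC308-1, a difference of -4.88 ± 0.11 (SE). The kainate receptor Grik3 was 0.12 against 5.72 FPKM, and the inward rectifier Kcnj10, a glial potassium channel, was 5.56 against 32.2 FPKM. On the higher side the metabotropic receptor Grm5 measured 24.8, 24.1 and 25.2 FPKM in PIC496-3 and 5.79, 5.4 and 5.49 FPKM in PC308-1, beside Grm3 at 6.72 against 2.34 FPKM and the potassium channel Kcnd2 at 23 against 10.9 FPKM. Gabra2, a GABA receptor subunit, was also higher with 7.71, 7.67 and 7.29 FPKM in PIC496-3 and 0.196, 0.163 and 0.341 FPKM in PC308-1. Among the glutamate receptors called, the ionotropic Gria4 and Grik3 were lower and the metabotropic Grm5 and Grm3 higher. Ionotropic ones not called went both ways, with Gria2 at 3.9 against 3.26 FPKM and Grik4 at 1.17 against 1.88 FPKM.

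Of 24 immediate-early and stress genes Fos alone was called, beside 7.11% of all genes. Fos was lower with 9.59, 5.89 and 9.7 FPKM in PIC496-3 and 26.6, 24 and 23.7 FPKM in PC308-1. Jun was 99.4 against 94.6 FPKM, Egr1 41.2 against 35.6 FPKM, Atf3 3.5 against 3.2 FPKM and Atf4 166 against 133 FPKM. At any size 6 were higher and 5 lower at an adjusted p under 0.05 in limma, beside 19.5% and 21.3% of all genes. Among them were the early gene Nr4a1 at 9.24 against 17.2 FPKM (-0.85) and Klf4 at 12.7 against 7.25 FPKM (0.76). The median of the list, 0.02, turned to -0.04 with quantile normalization, -0.07 after rescaling to TPM and -0.03 without PC308-1 replicate 2. Arc, an early gene of neurons, was outside the list and higher with 16.6, 18.3 and 18.3 FPKM in PIC496-3 and 2.45, 1.97 and 1.98 FPKM in PC308-1, as was Egr4 with 4.81, 5.52 and 3.6 FPKM in PIC496-3 and 0.181, 0 and 0 FPKM in PC308-1. Of 10 chemokine and cytokine genes 2 were called lower and 1 higher, beside 4.89% and 2.21% of all genes. Lower were Cxcl10, given above, and Il33, an alarmin, at 1.34 against 4.17 FPKM. Ccl2 was higher at 1.27 against 0.306 FPKM, a call lost without PIC496-3 replicate 2 and without PC308-1 replicate 3.

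Without regard to lists, the largest difference toward PIC496-3 was in Galnt17, a glycosyltransferase gene on chromosome 5, 130872082 to 131308497 of the minus strand (GRCm38, ENSMUSG00000034040), with 16.4, 14.4 and 15.5 FPKM in PIC496-3 and 0.0649, 0.0314 and 0.0723 FPKM in PC308-1, a difference of 4.84 ± 0.092 (SE). It was followed by the vesicle protein gene Rab26 with 11.1, 10.8 and 10.9 FPKM in PIC496-3 and 0.409, 0.456 and 0.596 FPKM in PC308-1, Gabra2 and the transcription cofactor Lmo2 at 6.46 against 0.216 FPKM. Golga7b and Sfrp5 had no fragment in any PC308-1 library. Golga7b measured 4.23 FPKM in PIC496-3 and Sfrp5, a secreted Wnt antagonist, 4.03 FPKM, at least 73.8-fold and 44.6-fold higher if 3 fragments are allowed in each PC308-1 library. The most abundant higher genes were Tmsb10, a protein that binds actin monomers, Igfbp3, which binds insulin-like growth factors, with 407, 409 and 417 FPKM in PIC496-3 and 170, 158 and 170.4 FPKM in PC308-1, and Scrg1 with 260.4, 234 and 241 FPKM in PIC496-3 and 53.3, 56.3 and 60.2 FPKM in PC308-1. Tmsb10, at 515 against 259 FPKM, lost its call without PIC496-3 replicate 1 or PC308-1 replicate 2, and Dbi at 139.7 against 68.3 FPKM without PIC496-3 replicate 2 or PC308-1 replicate 2. Both genes also lost it with quantile normalization and after rescaling to TPM. Rab26 overlaps Traf7 on the same strand.

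Toward PC308-1 the largest difference in a gene with a name was in Gt(ROSA)26Sor, the noncoding RNA of the Rosa26 locus, a site often used for transgenes. It lies on chromosome 6, 113067428 to 113077333 of the minus strand (GRCm38, ENSMUSG00000086429) and measured 1.15, 1.05 and 1.63 FPKM in PIC496-3 and 114, 63.5 and 114 FPKM in PC308-1, a difference of -5.74 ± 0.24 (SE). Replicate 2 of PC308-1 was lower than replicates 1 and 3, yet above every PIC496-3 library. Outside the pair this RNA measured 0.604 FPKM in PIC144-1, 1.86 in PIC144-3, 2.01 in PIC496-4, 4 in PC134-0 and 2.01 in PC326-1, with PC134-0 the next line after PC308-1. It overlaps Thumpd3 on the opposite strand, and the labels do not say whether anything was placed at the locus. A snoRNA with a predicted name, Gm22622, differed more, at 0.783 against 84.2 FPKM.

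Other genes far lower in PIC496-3 were Hapln1, a link protein of hyaluronan matrix, at 0.0727 against 10.9 FPKM, the matrix protein Vit at 0.862 against 25.6 FPKM, the homeobox gene Alx4 at 0.36 against 12.6 FPKM and the opsin Opn5. Opn5 had no fragment in PIC496-3 and 6.22 FPKM in PC308-1, at least 67.1-fold lower on the same allowance. Abundant among the lower genes were Igfbp4 with 63.7, 55.6 and 59.4 FPKM in PIC496-3 and 358, 311 and 368 FPKM in PC308-1, the lactate dehydrogenase subunit Ldhb with 52.6, 49.97 and 51.6 FPKM in PIC496-3 and 182, 167 and 154 FPKM in PC308-1 and the glucose transporter Slc2a3 at 81.3 against 168 FPKM. In Igfbp4 and Ldhb the libraries of the lines lay far apart. Slc2a3 lost its call without PIC496-3 replicate 2 or PC308-1 replicate 2.

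**Figure D3:**
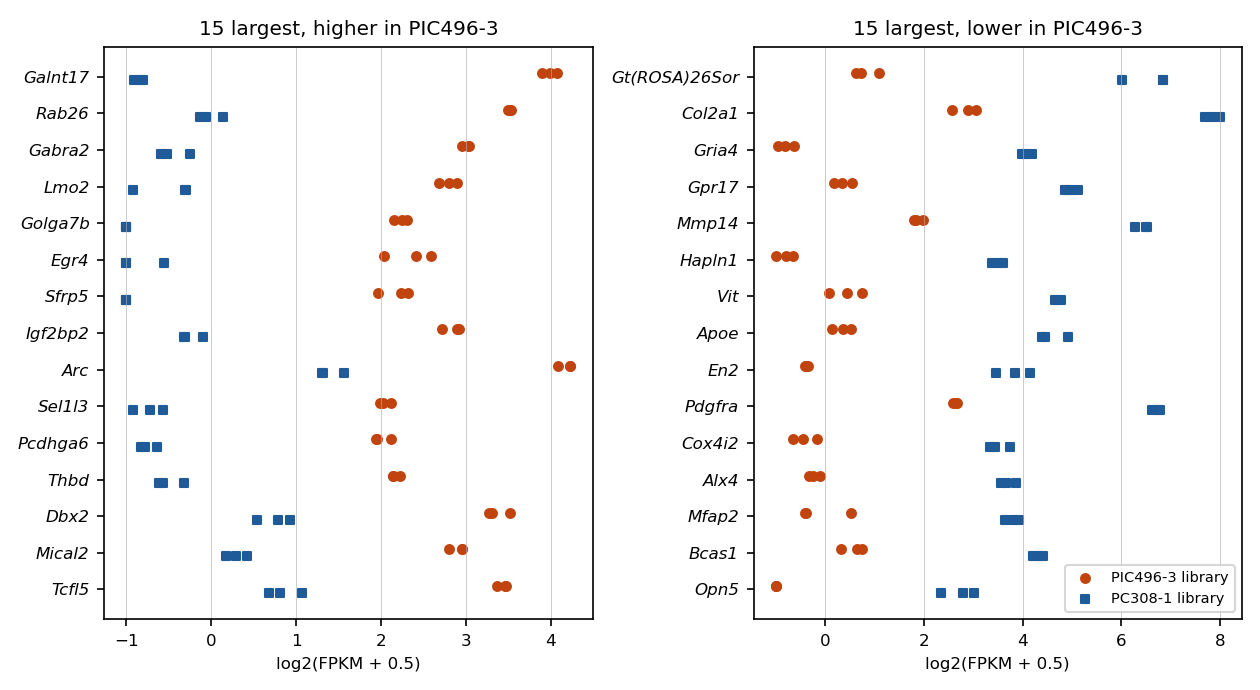
Dots are the 3 PIC496-3 libraries and squares the 3 PC308-1 libraries, on a log2(FPKM + 0.5) axis, for the 15 named genes with the largest difference in each direction. Genes were taken only where the libraries of the lines do not overlap. Golga7b and Sfrp5 sit at the axis value of 0 FPKM in PC308-1, as Opn5 does in PIC496-3.

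The levels in all 7 lines show which line of the pair stood apart, a description in which a 2-fold distance from every line includes that between the pair. In 154 of the 941 called genes PC308-1 lay at least 2-fold beyond each of the other 6 lines in the direction it has in the pair, and in 142 of these it was the highest line. PIC496-3 stood apart in this way in 46 genes, in 34 as the highest and in 12 as the lowest. Over all 13239 genes, called or not, the numbers were 163 (1.23%) and 52 (0.393%). Another 176 genes separated all 7 lines by genotype, 42 with the IDH1 mutant lines higher and 134 with them lower. The remaining 565 had none of these patterns. With genes counted also where a line stood apart, the 7 lines separated by genotype in 42 of the higher genes (14.3%) and 157 of the lower genes (24.2%), and in either direction in 13.1% of all genes. The pair is part of this order, so nothing is read from the shares.

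Among the genes with PC308-1 apart were Gt(ROSA)26Sor, Col2a1, Gpr17, Pdgfra, Hapln1, Vit, Opn5 and S100b. Col2a1 measured 3.6 FPKM in PIC144-1, 10.1 in PIC144-3, 0.699 in PIC496-4, 2.84 in PC134-0 and 1.15 in PC326-1 outside the pair. PIC496-3 stood apart in Golga7b, Egr4, Sfrp5, Arc, Thbd, Igfbp3, Scrg1 and Nkx6-2 as the highest line and in Grb10, Pcdhgb1, Bcas1 and Gja1 as the lowest. Bcas1 measured 22.6 FPKM in PIC144-1, 5.18 in PIC144-3, 4.4 in PIC496-4, 19.4 in PC134-0 and 17.8 in PC326-1, so here PC308-1 was like the other IDH1 WT lines. Separated by genotype, by the order of line means alone, were Cgas, Rsad2, Ifit2, Tlr3, Zcchc3, Gria4, Mmp14, Apoe, Cox4i2, Mfap2, Ndufa4l2, Erbb4, Ntrk3, Hey1, Cdo1 and Ldhb, all lower in the IDH1 mutant lines. In Apoe, outside the pair, the levels were 2.61 FPKM in PIC144-1, 1.12 in PIC144-3, 1.74 in PIC496-4, 17.7 in PC134-0 and 8.49 in PC326-1, and in Mmp14 0.874 FPKM in PIC144-1, 21.6 in PIC144-3, 6.02 in PIC496-4, 59.1 in PC134-0 and 61.1 in PC326-1. On the higher side Tubb4b did so. The protocadherin gamma genes Pcdhga6, higher at 3.52 against 0.0961 FPKM, and Pcdhgb1, lower at 0.831 against 10.6 FPKM, share exons with other genes of their cluster, which makes the division of reads among them uncertain.

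**Figure D4:**
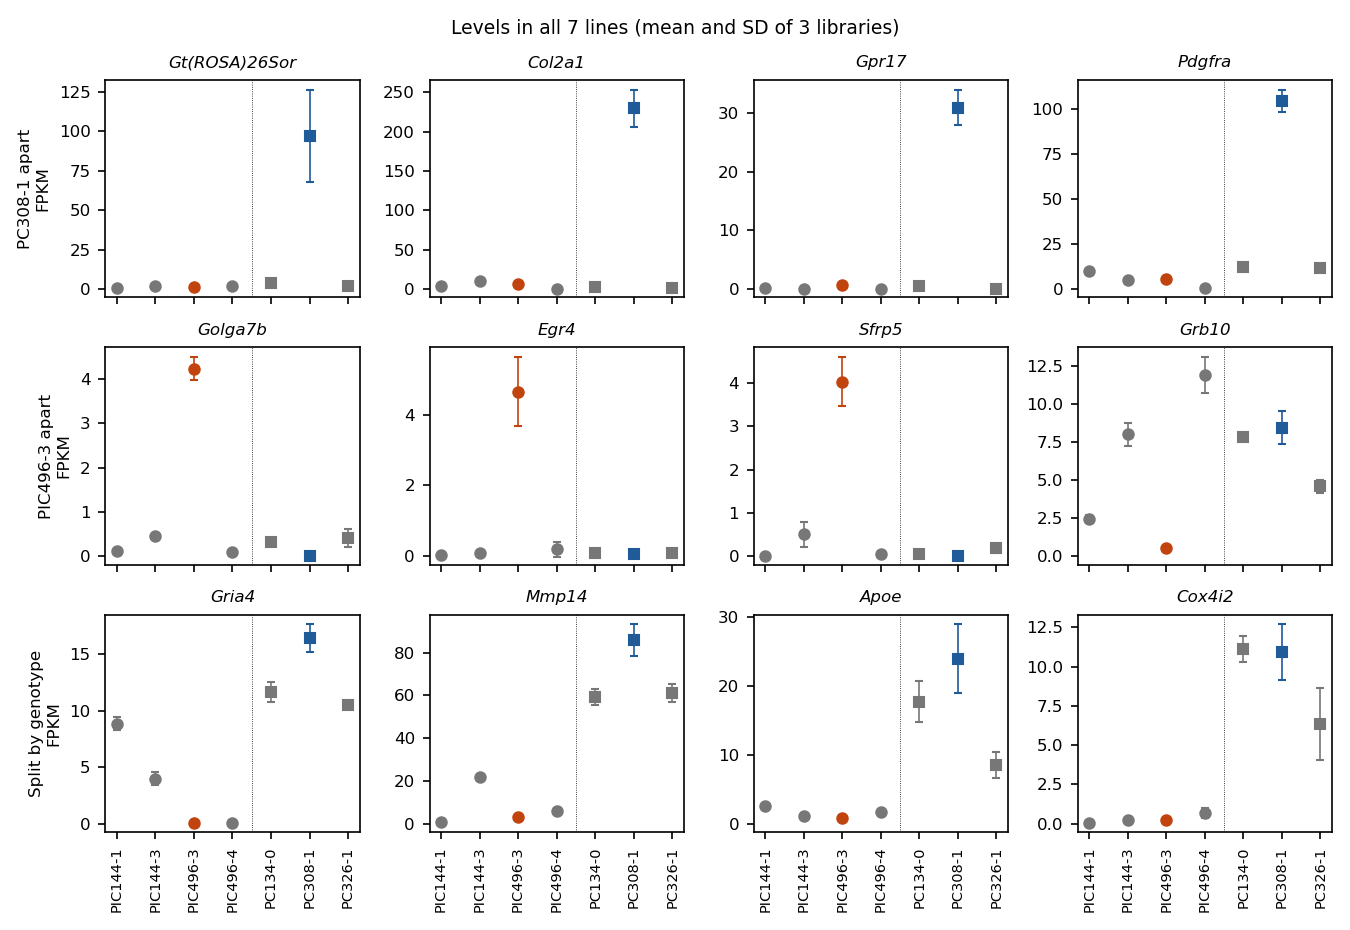
Each panel gives a gene's FPKM in 7 lines as the mean and SD of 3 libraries, with IDH1 mutant lines as circles left of the dotted line, IDH1 WT lines as squares, PIC496-3 in red and PC308-1 in blue. PC308-1 alone is high in the top row, PIC496-3 alone is high or low in the middle row, and the genotypes do not overlap in the bottom row.

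Whether the differences of the pair recur between the genotypes was examined in the 5 lines outside it, PIC144-1, PIC144-3 and PIC496-4 against PC134-0 and PC326-1, with a line as the replicate. These share no library with the pair. However, PIC496-4 shares the number in its name with PIC496-3 of the pair, as PIC144-1 does with PIC144-3. The labels do not say whether such lines come from the same animal, so the lines may not be independent. In that comparison 7 of 13239 genes (0.0529%) passed an adjusted p under 0.05 in limma, and 1958 (14.8%) had an unadjusted p under 0.05. Of the 7, Igsf21, a synaptic adhesion gene, and Pcdhgb6 were also called in the pair and in the same direction. Igsf21 was 0.0594 FPKM in PIC496-3 and 6.41 in PC308-1, at most 0.0811 in the other IDH1 mutant lines, and 10 and 6.78 in the other IDH1 WT lines, with adjusted p 0.0195 in limma. The other 5, Rpl34, Pik3r3, Gm7993, Dgkz and Stmn3, were not called in the pair. Dgkz, a lipid kinase gene, was 28.6 and 15.9 FPKM in the pair but at most 0.00288 in PC134-0 and PC326-1.

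Cgas did not pass in those lines, with a difference of -1.64 and an adjusted p of 0.330 in limma, and Idh1 did not either, with 0.53 and 0.224. By levels alone, the 3 mutant lines all lay above both IDH1 WT lines in 19.8% of all genes and below both in 19.2%. Of the 293 genes higher in PIC496-3, 51 (17.4%) had the mutant lines above and 50 (17.1%) below. Of the 648 genes lower in PIC496-3, 187 (28.9%) had the mutant lines below and 46 (7.10%) above. The shares of the higher genes were thus near those of all genes. Among the lower genes the same direction was above the share of all genes and the opposite direction below it. However, 307 of the lower genes passed the level filter through PC308-1 alone and 104 of the higher through PIC496-3 alone. Of all 13239 genes, 11860 passed it in both lines. Shares without the genes that passed in 1 line were not computed, so no recurrence is read from this comparison. The differences between these shares were not tested. Without PIC496-4 the mutant lines lay above both IDH1 WT lines in 25.2% of all genes and below both in 24.2%. Of the higher genes, 65 (22.2%) then had them above and 63 (21.5%) below. Of the lower genes, 206 (31.8%) had them below and 104 (16.05%) above, in place of 28.9% and 7.10%.

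By chromosome, the median difference was furthest from 0 on chromosome 12, at -0.25 over 525 genes, and was -0.28, -0.28 and -0.24 in the single PIC496-3 libraries against the PC308-1 mean. There 5 genes were called higher and 35 lower, 7.62% called beside 7.11% of all genes. Each line set against the median of the 7 lines over these genes gave 0.47 in PC308-1, 0.16 in PIC496-3, 0.17 in PIC496-4, 0 in PIC144-1 and PIC144-3, and -0.45 in both PC134-0 and PC326-1. Chromosome 14 had a median of -0.15, chromosome 19 of 0.11 and chromosome 13 of 0.10. Among the called genes on chromosome 12 were Fos, the potassium channel gene Kcnk13 at 0.534 against 8.35 FPKM and the transcription factor Osr1 at 0.0503 against 2.79 FPKM, and on chromosome 14 Mmp14 and Dleu7 at 0.378 against 5.97 FPKM. Copy number was not measured.

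**Figure D5:**
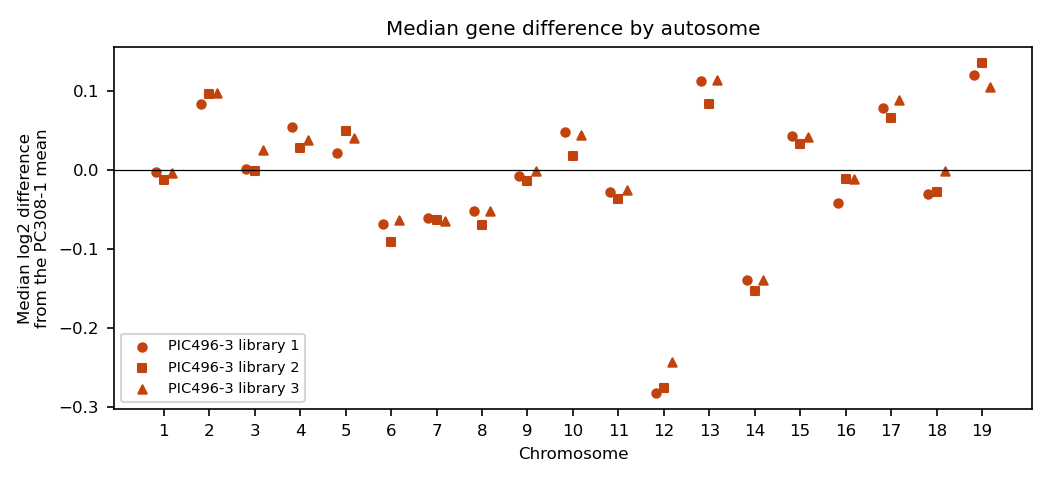
For each autosome the symbols give the median log2 difference of its genes in each of the 3 PIC496-3 libraries from the mean of the PC308-1 libraries. All 3 libraries lie lowest on chromosome 12, between -0.28 and -0.24.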

How the data were processed

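Values are the FPKM deposited by the authors for 54532 genes in 21 libraries of 7 lines. PolyA RNA was captured, and strand-specific libraries were sequenced from both ends, per the labels' protocols. HISAT2 and the build mm39 are named per the submitters' processing notes, whereas the file's coordinates are those of GRCm38: 53585 of 54495 gene IDs found in the GENCODE annotation of that build had the same position, and GRCm38 is given here. For the counter, the annotation and the use of strand, the setting is not given in the sources used here. In the file 27 symbols had become dates and were restored by gene ID. Whole fragments were recovered from the FPKM and gene length for all values, within a tolerance of 0.001.

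Genes of all chromosomes with a mean of at least 0.5 FPKM in either line were fitted, 13806 in all, of which 13239 autosomal ones are reported. limma 3.58.1 in R 4.3.3 (lmFit, eBayes with trend and robust) was run on log2(FPKM + 0.5), with Benjamini-Hochberg adjustment over all genes fitted, and was tested on simulated data first. Differences are on this scale, which understates those of low genes. An exact permutation of 3 against 3 libraries cannot go below 0.1, so single genes rest on limma. The comparison of the other 5 lines used line means. Replicate numbers were not found to pair libraries across the lines. Gene lists, members and the naming rule were chosen with earlier results of these data known. Named were Cgas, Idh1, the 15 largest and 6 most abundant called genes in each direction with no predicted or clone symbol, up to 6 called genes of each list and pattern, and 3 on each of the chromosomes furthest from the median. The largest, abundant, pattern and chromosome genes were taken only where the libraries of the lines did not overlap. Some genes that this rule or the lists hold are not reported here. Other list genes were chosen after their values were seen. Figures were drawn with matplotlib 3.10.9.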

Additional observations from a re-analysis of the deposited data

Results flagged for a closer look

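In 10 named genes the pair differed in one direction and all of the other 5 lines in the opposite one, so that the 3 other IDH1 mutant lines lay on the far side of both other IDH1 WT lines. The difference between the pair and those lines was not tested. In 8 of them PIC496-3 was higher although the other mutant lines were lower by genotype: Arc with a difference of 2.79 in the pair, Pcdhga6 with 2.75, Nkx6-2 with 2.04, Slc1a2 with 2.02, Emx2 with 1.80, Igfbp3 with 1.31, Fgfr3 with 1.28 and Hopx with 1.16. H19 with -2.06 and Fos with -1.54 were lower in PIC496-3 although the other mutant lines lay above both other IDH1 WT lines. Igfbp3 measured 37.5 FPKM in PIC144-1, 139 in PIC144-3, 66.1 in PIC496-4, 153 in PC134-0 and 157 in PC326-1. Hence each of these genes had an order in the pair that the other lines do not share. The same held for 50 of the 293 genes called higher (17.1%) and 46 of the 648 called lower (7.10%). Over all genes, the other mutant lines lay above both other IDH1 WT lines in 19.8% and below both in 19.2%.

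Sex-linked genes lay outside the comparison, which was limited to autosomes, and they separated the lines. Xist, the RNA that silences an X chromosome, measured 8.11 FPKM in PIC496-3 and 0.00110 in PC308-1. The Y-linked genes Ddx3y at 10.2, Eif2s3y at 9.76 and Kdm5d at 2.04 FPKM in PC308-1 had no fragment in PIC496-3. The lines therefore differ in sex chromosome expression as well as in genotype, and the part of this in the autosomal differences was not tested.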

How the results depend on the processing

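The number of genes called depended on the scale. With a pseudocount of 1, 412 genes were lower, and with a filter of 2 FPKM 428 were, while voom on the recovered fragments called 466 higher and 965 lower, in place of 293 and 648. Leaving out 1 library at a time gave 289 to 324 higher and 624 to 660 lower genes. Of 116 named genes that were called, 103 had a value under all 17 alternatives of the pair's fit, and 94 of these kept their call. The other 13 were below the filter of 2 FPKM, and 4 of them kept their call under the alternatives that gave a value. In all 18 lost it under an alternative, and the losses that single libraries decide are given beside those genes. Among named genes the sign turned in the log2 difference of Aldoc with quantile normalization, to -0.069, and the log2 difference of Cd68 without PIC496-3 replicate 3, to -0.042, and without PC308-1 replicate 2, to -0.007197, over a range of -0.042 to 0.24 with 1 library left out. None of them was called, and the cause was not tested. Rescaling to TPM moved the median of all genes to -0.08. With a gap of 0.5 on the log2 scale PC308-1 stood apart in 307 genes and PIC496-3 in 115, and with a gap of 2 in 33 and 10.

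In the other 5 lines the 7 genes became 0 without PIC144-1, 1 without PIC496-4, 0 without PC134-0 and 0 without PC326-1, while 7 genes passed without PIC144-3. At an unadjusted p under 0.05 in limma these fits had 1835, 1917, 647, 807 and 3324 genes, each with 4 lines, in place of 1958. Leaving out the libraries of 1 replicate number gave 8 to 9. Libraries taken as replicates, 15 with a replicate block, gave 4428, since that fit measures the spread within lines. In the pair, the replicate block gave 293 and 646 and changed no other count by over 1.5 times. Same-numbered libraries deviated from their line means with correlations of 0.009, -0.036 and -0.036, so the numbers were not taken as pairs.

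Depth limits the low genes: Ifit1 rests on 9 fragments in PIC496-3.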
